A study of Mus musculus with 6 samples.

Results

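Fatty acid oxidation, ketone body and PPARa target genes were followed in regenerating mouse liver with and without Socs3 in hepatocytes. A named list of 36 genes was taken, covering fatty acid uptake, the carnitine shuttle, mitochondrial, peroxisomal and microsomal oxidation, ketone bodies and known PPARa targets. Each gene was read from its brightest probe set that the platform annotation pairs with 1 gene. Of the 36 genes, 33 were measured and all 33 passed the filter on dim probe sets, among 8554 genes tested in all. The other 3, the acyl-CoA synthetase Acsl1, the omega-hydroxylase Cyp4a10 and the mitochondrial carrier Ucp2, have no probe set paired with 1 gene in the annotation used and were not analysed here.

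RNA came from whole liver taken 18 h after a partial hepatectomy, an operation that removes most of the organ, and was hybridised to Affymetrix whole-genome mouse arrays. Both groups were C57BL/6 mice with Socs3 flanked by loxP sites on both copies (Socs3 fl/fl) and standard food at all times. The Cre plus group (3 arrays, A, B and C) also carried Cre recombinase driven by the albumin promoter, which acts in hepatocytes. Whether other liver cells kept the gene was not measured here. The Cre minus group (3 arrays, A, B and C) held littermates without Cre. The SOCS3 protein dampens cytokine signals that pass through JAK kinases and STAT3. There was no array from before surgery and no Cre control without floxed Socs3, so effects of the operation, of Cre and of Socs3 loss before surgery cannot be told apart here. The labels do not say that each array came from its own mouse, and the p-values thus measure only how far these samples spread, and that spread may be technical. In RNA from whole liver, fewer hepatocytes and less RNA per hepatocyte cannot be told apart.

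The liver burns fatty acids mainly in mitochondria. Acyl groups cross the inner membrane as carnitine esters and are shortened by repeated dehydrogenation, hydration, dehydrogenation and thiolysis, and the acetyl-CoA can leave as ketone bodies. Peroxisomes shorten very long chains and microsomal CYP4A enzymes hydroxylate the far end of the chain. The nuclear receptor PPARa, paired with RXR, is activated by fatty acids and in fasting, and it drives many genes of these routes through DNA elements made of AGGTCA repeated in 1 direction with 1 free base between the copies.

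To show which of the genes carry such an element close to their start, RefSeq promoter windows of mouse GRCm38.p6 were read, from 250 bases before each gene's start to 50 bases from it on. Of the 36 genes, 30 had a window (32 windows, since 2 genes had more than 1), and Crat, Acaa2, Decr1, Cyp4a10, Cyp4a14 and Angptl4 had none. The repeat, searched on both strands with at most 2 mismatches in its 12 set bases, was found in 4 of 32 windows (12.5%), against 1268 of 32851 windows of all genes (3.86%). Those 4 windows belong to Fabp1, Slc25a20, Etfa and Acot4. The Fabp1 match read AGGcCATAGGTCA on the strand opposite to the gene, that of Slc25a20 AGGTgAAAGGTCg on the gene's strand, that of Etfa AGGgCAAAGGTaA and that of Acot4 cGGcCAAAGGTCA, both opposite to the gene, with mismatched bases in lower case. AGGTCA alone was in 6 windows (18.75%), against 16.26% of all windows. TTC and GAA separated by 3 free bases, the core of a STAT element, was in 3 windows (9.375%), against 8.298% of all windows. These 3 windows were those of Cpt2, Hadha and Hadhb, and Hadha and Hadhb, which encode the subunits of the trifunctional protein, are neighbours transcribed away from each other with 273 bases between their starts and share the same match. A match is a description of the letters and does not show binding.

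The stretches with the matches are printed 5′ to 3′ on the gene's strand, from 150 bases before the start to 30 bases from it on, with the matched bases in capitals. Fabp1 is at chr6:71199729-71199908 on the plus strand, Slc25a20 at chr9:108661986-108662165 on the plus strand, Etfa at chr9:55512214-55512393 on the minus strand, Acot4 at chr12:84038229-84038408 on the plus strand and Hadhb at chr5:30155103-30155282 on the plus strand. In the first 4 the capitals mark the AGGTCA repeat, and in Hadhb they mark the STAT core shared with Hadha.
Fabp1: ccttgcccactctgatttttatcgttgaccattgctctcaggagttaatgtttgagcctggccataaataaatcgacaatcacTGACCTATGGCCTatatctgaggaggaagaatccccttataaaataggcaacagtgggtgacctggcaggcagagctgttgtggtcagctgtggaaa
Slc25a20: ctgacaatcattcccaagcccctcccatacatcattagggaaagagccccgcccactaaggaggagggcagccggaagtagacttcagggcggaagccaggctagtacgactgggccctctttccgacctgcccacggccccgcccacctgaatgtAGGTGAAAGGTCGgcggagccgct
Etfa: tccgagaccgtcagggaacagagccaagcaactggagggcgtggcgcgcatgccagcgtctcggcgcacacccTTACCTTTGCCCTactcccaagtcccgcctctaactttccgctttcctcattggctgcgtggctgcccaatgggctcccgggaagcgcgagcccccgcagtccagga
Acot4: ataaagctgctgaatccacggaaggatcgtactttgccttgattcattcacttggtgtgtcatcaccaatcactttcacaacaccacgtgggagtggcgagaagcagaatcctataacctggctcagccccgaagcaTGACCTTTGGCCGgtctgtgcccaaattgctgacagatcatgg
Hadhb: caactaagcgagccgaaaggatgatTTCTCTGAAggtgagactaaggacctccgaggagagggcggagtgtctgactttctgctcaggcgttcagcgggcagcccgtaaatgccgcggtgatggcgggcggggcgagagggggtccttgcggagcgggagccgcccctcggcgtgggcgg

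The targeted gene was low on every Cre plus array. Socs3 had log2 values of 9.09, 9.30 and 9.24 on Cre minus A, B and C and of 7.44, 6.69 and 7.47 on Cre plus A, B and C, a log2 fold change of -2.01 ± 0.22 (SE) at limma's adjusted p = 0.0732. Over the 8554 genes, arrays correlated at 0.995 within Cre minus and at 0.987 to 0.990 within Cre plus. Cre plus B was closer to the control arrays (0.991 to 0.993) than Cre plus A and C were (0.982 to 0.988). For genes of the named list whose difference rests on Cre plus B, the difference is therefore also given without it. Fold changes of genes outside that list are given with all arrays only. The hepatocyte markers Alb, Ttr, Apoa1 and others (9 of 10 measured) averaged 14.83 to 14.90 on the Cre minus arrays and 14.75 to 14.87 on the Cre plus arrays on the log2 scale, and 1 of them was lower at an unadjusted limma p under 0.05. The 11 Kupffer cell and macrophage markers averaged 7.90 to 8.02 against 7.47 to 7.67, with 7 lower at that p and a median log2 fold change of -0.39. Sinusoidal endothelial markers (9 kept of 10) averaged 7.06 to 7.14 against 6.95 to 7.06, with 3 lower. Stellate cell markers (9 kept of 10) averaged 6.74 to 6.75 against 6.75 to 6.94, with 1 higher. For each cell type the averages are over all measured markers, kept or not, and the counts at that p over the kept ones. Of the neutrophil markers 2 of 6 measured passed the filter, and all 6 averaged 4.29 to 4.40 against 4.21 to 5.01. Of the cholangiocyte markers 1 of 5 passed, and of the red cell markers 1 of 2. Of the lymphocyte markers (6 measured) and the adipocyte markers Adipoq and Lep 0 passed. The part of these shifts in the results that follow was not tested.

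Most of the 33 genes had lower values in the Cre plus group, by a small amount. In value, 31 were lower and 2 (Pdk4 and Angptl4) higher, where 53.5% of all genes tested were lower. The median log2 fold change, Cre plus minus Cre minus, was -0.28, against -0.01 over all genes tested. With Benjamini-Hochberg adjustment over all genes, 0 of the 33 passed an adjusted limma p under 0.05 (0.0234% of all genes did), and the smallest adjusted p was 0.0995, for Acadm. At an unadjusted limma p under 0.05, 18 of the 33 were lower (8.21% of all genes) and 0 higher (6.62% of all genes). All 3 Cre plus arrays lay below all 3 Cre minus arrays for 21 of the 33 (11.9% of all genes), and above them for 0 (9.21% of all genes). These genes are bright ones, and bright genes differed more often, so the 27 with a mean log2 value over 10 were also set beside the 1180 such genes, a cut chosen after the values were seen. Of the 27, 17 were lower at an unadjusted p under 0.05 (13.6% of bright genes) and 19 did not overlap (17.4% of bright genes). The count of 18 became 11 without Cre minus A and 10 without Cre minus C.

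Each Cre plus array showed the lower values. Against the Cre minus mean of each gene, 28 of the 33 genes were lower on Cre plus A, 32 on Cre plus B and 29 on Cre plus C, where 51.2%, 52.8% and 57.7% of all genes were. The median shift of the 33 genes was -0.20 on Cre plus A, -0.27 on Cre plus B and -0.29 on Cre plus C. Their mean shift was -0.19, -0.46 and -0.19 in the same order, and without Pdk4 it was -0.28, -0.45 and -0.29. The Cre minus arrays themselves lay at mean shifts of 0.05, -0.14 and 0.09. Cre minus B was thus nearest to the Cre plus arrays, and the median log2 fold change was -0.35 without it.

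**Figure D1:**
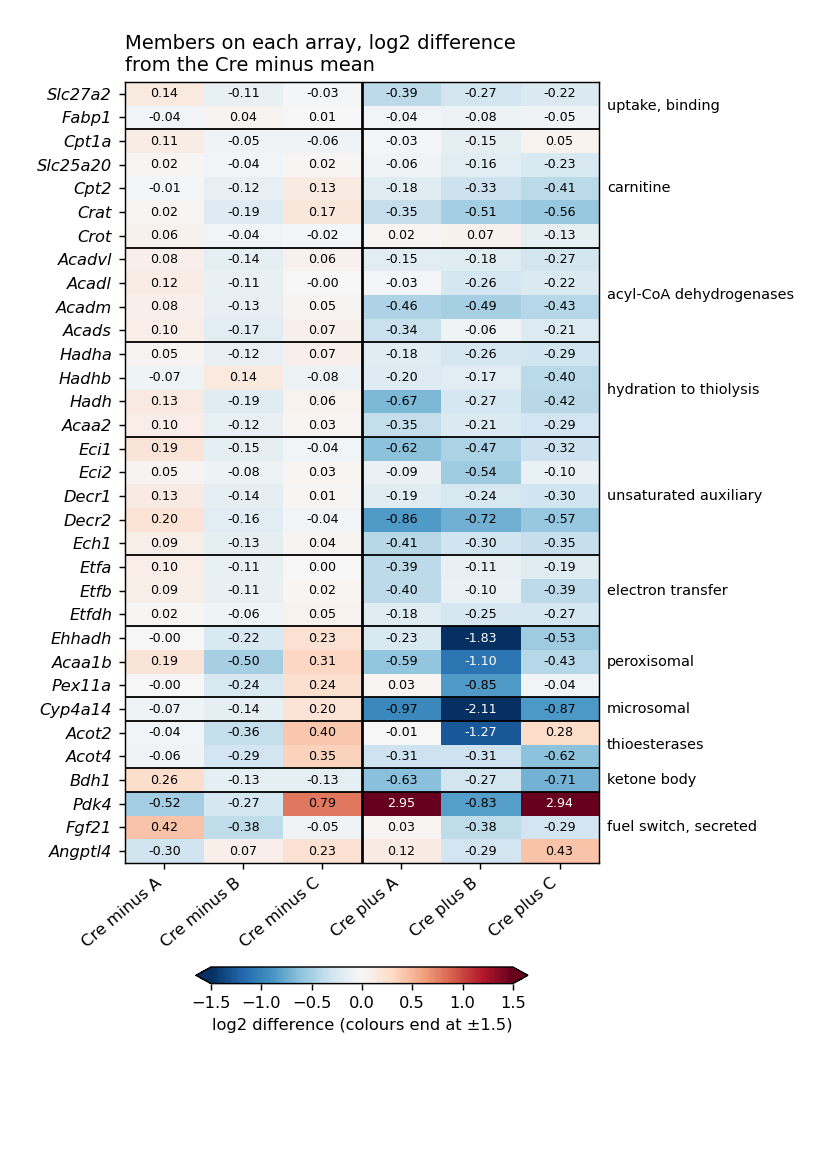
Log2 difference of each of the 33 genes (rows, grouped by role) from its Cre minus mean on each of the 6 arrays (columns), with the value in each cell and colours that end at ±1.5. The rows from the carnitine genes to electron transfer are mostly pale on all 3 Cre plus arrays, while Cyp4a14 (-2.11), Ehhadh (-1.83), Acot2 (-1.27) and Acaa1b (-1.10) are lowest on Cre plus B and Pdk4 is high on Cre plus A (2.95) and C (2.94) only.

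Of the 2 measured genes of uptake and binding, Slc27a2 had lower values without overlap and Fabp1 overlapped. Slc27a2, a fatty acid transporter and very long-chain acyl-CoA synthetase, had log2 values of 13.94, 13.68 and 13.76 on Cre minus A, B and C and of 13.40, 13.52 and 13.58 on Cre plus A, B and C. The groups did not overlap, and back on the linear scale its Cre plus mean was 81.6% of the Cre minus mean (log2 fold change -0.29 ± 0.09, adjusted p = 0.248 by limma). Fabp1, the liver's fatty acid binding protein and the gene whose AGGTCA repeat had the fewest mismatches, read 15.47, 15.55 and 15.52 against 15.48, 15.44 and 15.47. Its groups overlapped, with a log2 fold change of -0.06 and a 95% interval from -0.18 to 0.07. After quantile normalization its log2 fold change was 0 to within 1e-09. It is near the top of the array's range, where differences can be compressed.

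Of the 5 carnitine genes, all were lower in value, 2 at an unadjusted p under 0.05, with a median of -0.15. Cpt1a, which makes acylcarnitine at the outer mitochondrial membrane and is the controlled entry step, read 11.15, 10.99 and 10.98 in the controls and 11.01, 10.89 and 11.09 on the Cre plus arrays. Its groups overlapped, and the log2 fold change of -0.04 had a 95% interval from -0.24 to 0.16. The 3 kept probe sets of Cpt1a gave -0.04, 0.01 and -0.06. Cpt2, which turns acylcarnitine back into acyl-CoA inside the mitochondrion, read 11.27, 11.17 and 11.42 against 11.11, 10.96 and 10.88. All Cre plus values lay below all Cre minus values, at -0.30 ± 0.09 (81.0% of Cre minus, adjusted p = 0.252 by limma), while its other kept probe set gave -0.09. Crat, the carnitine acetyltransferase that buffers acetyl-CoA, read 9.13, 8.91 and 9.28 against 8.76, 8.60 and 8.54, also without overlap. It had the largest difference of the 5, -0.47 ± 0.11, or 72.1% of Cre minus (adjusted p = 0.187 by limma). The translocase Slc25a20 was at -0.15 (95% interval from -0.31 to 0.01). Its groups nearly touched without overlapping, at 11.292 on Cre minus B and 11.281 on Cre plus A. The peroxisomal octanoyltransferase Crot was at -0.02 (95% interval from -0.20 to 0.17).

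The mitochondrial acyl-CoA dehydrogenases catalyse the first oxidation for chains of falling length. Acadm, for medium chains, read 11.85, 11.65 and 11.82 on Cre minus A, B and C against 11.31, 11.28 and 11.35 on Cre plus A, B and C. The gap between the groups was wider than the range within each, and the Cre plus mean was 72.6% of Cre minus (log2 fold change -0.46 ± 0.07, adjusted p = 0.0995 by limma, the smallest of the 33 genes). Acadvl, for very long chains, read 12.10, 11.88 and 12.08 against 11.86, 11.84 and 11.74, at -0.20 ± 0.08 (adjusted p = 0.329 by limma). Its groups came within a few hundredths of each other without overlapping. Acadl, for long chains, and Acads, for short chains, overlapped between groups, at -0.17 (95% interval from -0.40 to 0.06) and -0.20 ± 0.11. All 4 were lower in value and 2 at an unadjusted p under 0.05.

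The 4 genes of the remaining mitochondrial steps, hydration, the second oxidation and thiolysis, were all lower at an unadjusted p under 0.05 and none overlapped. Hadha and Hadhb encode the alpha and beta subunits of the trifunctional protein, which acts on long chains. Hadha read 10.99, 10.83 and 11.02 against 10.76, 10.68 and 10.65. Hadhb read 11.96, 12.17 and 11.94 against 11.83, 11.85 and 11.62. The subunits differed by similar amounts, -0.25 ± 0.07 for Hadha and -0.26 ± 0.10 for Hadhb (adjusted p = 0.241 and 0.312 by limma), and the other 2 kept probe sets of Hadhb gave -0.34 and -0.27. Hadh, the hydroxyacyl-CoA dehydrogenase for shorter chains, read 12.48, 12.16 and 12.41 against 11.68, 12.08 and 11.93. Cre plus B was the nearest to the controls for Hadh, and the difference was -0.45 ± 0.13 (73.1% of Cre minus, adjusted p = 0.239 by limma). Acaa2, the mitochondrial ketoacyl-CoA thiolase, read 12.81, 12.58 and 12.73 against 12.36, 12.49 and 12.42, at -0.28 ± 0.08 (adjusted p = 0.220 by limma). Its other kept probe sets gave -0.37 and -0.33.

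Unsaturated chains need auxiliary isomerases and reductases, and all 5 of these genes were lower in value with no overlap between the groups, 4 of them at an unadjusted p under 0.05, with a median of -0.35. Decr2, the peroxisomal dienoyl-CoA reductase, read 10.77, 10.41 and 10.53 on the Cre minus arrays and 9.72, 9.85 and 10.003 on the Cre plus arrays. The highest Cre plus value was thus well below the lowest Cre minus value, and the Cre plus mean was 60.9% of Cre minus (-0.72 ± 0.12, adjusted p = 0.110 by limma). Eci1, the mitochondrial enoyl-CoA isomerase, read 10.66, 10.32 and 10.43 against 9.85, 9.998 and 10.15, at -0.47 ± 0.12 (72.2% of Cre minus, adjusted p = 0.196 by limma). Ech1, a dienoyl-CoA isomerase, read 12.22, 11.99 and 12.17 against 11.72, 11.82 and 11.78, at -0.35 ± 0.08 (78.2%, adjusted p = 0.169 by limma). In Decr2, Eci1 and Ech1, Cre plus A was the lowest of the 6 arrays. Decr1, the mitochondrial dienoyl-CoA reductase, read 12.11, 11.84 and 11.99 against 11.79, 11.74 and 11.67, at -0.24 ± 0.09 (adjusted p = 0.287 by limma), and its other kept probe set gave -0.40. Eci2, a peroxisomal and mitochondrial isomerase, read 12.35, 12.23 and 12.33 against 12.21, 11.77 and 12.21. Its difference of -0.24 ± 0.13 rested on Cre plus B and was -0.10 ± 0.07 without it.

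The electron transfer flavoprotein takes the electrons of the dehydrogenases to the respiratory chain. Etfdh, which passes them to ubiquinone, read 11.30, 11.22 and 11.34 against 11.11, 11.04 and 11.02. Its arrays were tight within each group and did not overlap, at -0.23 ± 0.06 (85.1% of Cre minus, adjusted p = 0.196 by limma). Etfb, the beta subunit, read 11.23, 11.03 and 11.16 against 10.74, 11.04 and 10.75, so that Cre plus B lay within the Cre minus values (-0.30 ± 0.11, adjusted p = 0.290 by limma). The alpha subunit Etfa, which has an AGGTCA repeat in its printed stretch, was at -0.23 ± 0.10. Its groups nearly touched without overlapping, at 11.965 on Cre minus B and 11.959 on Cre plus B. For comparison, 83 genes whose symbols begin like those of respiratory chain and ATP synthase subunits had a median of -0.09. They were picked after values had been seen, and symbols that begin so can include assembly factors. Of the 83 genes, 75 were lower in value (90.4%, against 53.5% of all genes), 9 were at an unadjusted p under 0.05 (10.8%, against 8.21%) and 24 did not overlap (28.9%, against 11.9%).

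**Figure D2:**
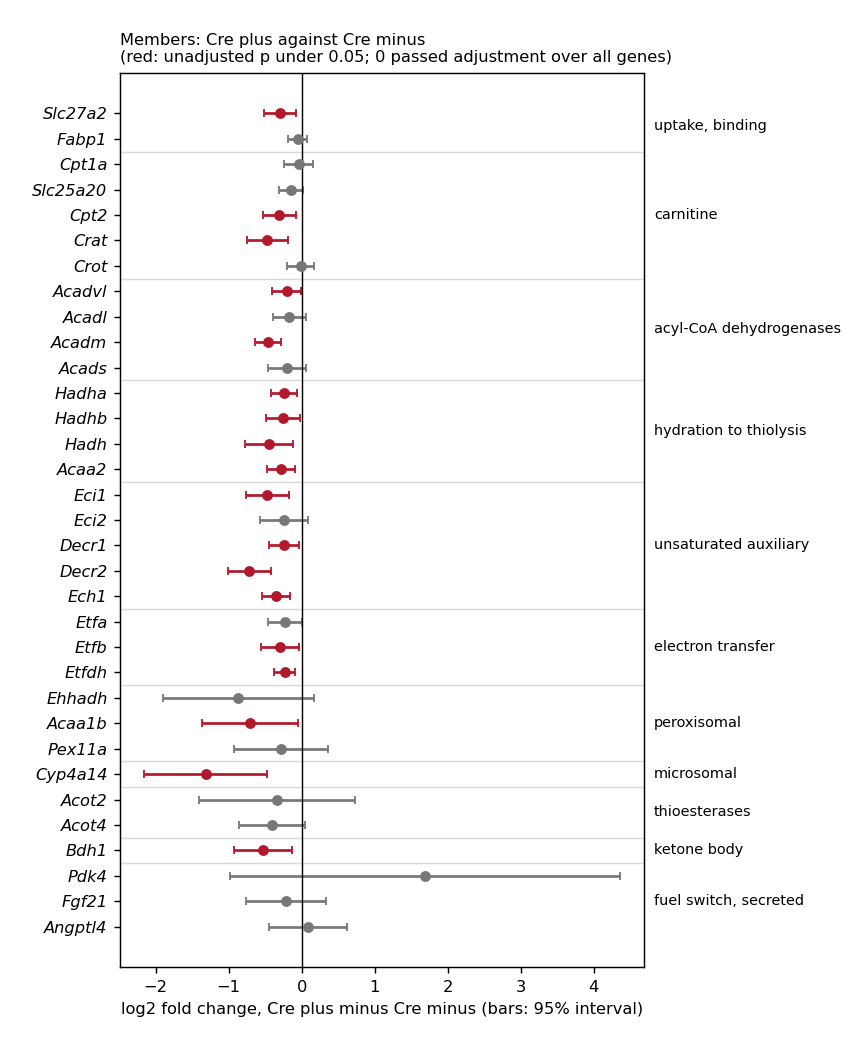
Log2 fold change, Cre plus minus Cre minus, of the 33 genes (points) with limma's 95% interval (bars), red where the unadjusted p was under 0.05. The intervals from the carnitine genes to electron transfer are narrow and mostly left of 0, those of Ehhadh (from -1.90 to 0.17), Acot2 (from -1.40 to 0.74) and Pdk4 (from -0.99 to 4.36) are wide.

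Among the peroxisomal, microsomal and thioesterase genes, Cyp4a14 and Ehhadh had the lowest log2 fold changes of the 33. Cyp4a14, the microsomal omega-hydroxylase and a strongly inducible PPARa target, read 12.76, 12.69 and 13.03 on Cre minus A, B and C against 11.86, 10.71 and 11.96 on Cre plus A, B and C. Every Cre plus value was below every Cre minus value, with Cre plus B the lowest by more than 1 log2 unit. The log2 fold change was -1.32 ± 0.34 (95% interval from -2.16 to -0.47, 40.2% of Cre minus, adjusted p = 0.200 by limma), and without Cre plus B it was -0.92 ± 0.12 (adjusted p = 0.0674 by limma, and 0.0674 to 0.525 over all alternatives).

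Ehhadh, the peroxisomal bifunctional enzyme of hydration and oxidation, read 12.84, 12.62 and 13.07 against 12.61, 11.01 and 12.31. Cre plus A came close to the lowest control and Cre plus B was far below all others, so that the log2 fold change of -0.87 ± 0.42 (adjusted p = 0.405 by limma) became -0.38 ± 0.17 without Cre plus B. Acaa1b, a peroxisomal thiolase, read 13.38, 12.69 and 13.49 against 12.60, 12.09 and 12.76. Cre minus B lay below Cre plus C, and the difference was -0.71 ± 0.27 with Cre plus B (61.3% of Cre minus, adjusted p = 0.312 by limma) and -0.51 ± 0.26 without it. Pex11a, which drives peroxisome proliferation, read 10.62, 10.38 and 10.85 against 10.64, 9.77 and 10.57. Its difference of -0.29 ± 0.26 was -0.01 ± 0.15 without Cre plus B.

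The acyl-CoA thioesterases split acyl-CoA into free acid and coenzyme A. Acot2, the mitochondrial form, read 7.84, 7.52 and 8.28 against 7.87, 6.61 and 8.16. Cre plus A and C lay among the controls, and the difference was -0.33 ± 0.43 with Cre plus B and 0.14 ± 0.25 without it. Acot4, a peroxisomal form, read 5.82, 5.59 and 6.23 against 5.57, 5.57 and 5.26. Its groups came within a few hundredths of each other without overlapping, at -0.41 ± 0.18 (adjusted p = 0.368 by limma), and Cre plus C, not B, was the lowest.

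Cre plus B was the lowest of the 6 arrays for 12 of the 33 genes, against 13.9% of all genes. Cre plus A was the lowest for 9, against 18.5% of all genes, and Cre plus C for 11, against 27.3%. A count added after the values were seen took the genes in which Cre plus B lay below both other Cre plus arrays by more than the range of the Cre minus arrays. It held 6 of the 33, Eci2, Ehhadh, Pex11a, Cyp4a14, Acot2 and Pdk4, against 10.5% of all genes. The mitochondrial Acot2 and the peroxisomal Ehhadh and Pex11a are among the 6, and the peroxisomal Decr2, Crot and Acot4 are not. Acaa1b, also peroxisomal, lay 0.51 log2 units lower on Cre plus B than on both others, but its Cre minus range was 0.80. Whether the pattern follows the compartment of the enzyme was not tested. On Cre plus B the mean shift of Ehhadh, Acaa1b and Pex11a was -1.26 and that of Cyp4a14 -2.11, where Cre plus A had -0.26 and -0.97 and Cre plus C -0.34 and -0.87. Of the thioesterases, Acot2 lay at -0.01, -1.27 and 0.28 on Cre plus A, B and C and Acot4 at -0.31, -0.31 and -0.62. The carnitine genes lay at -0.12, -0.21 and -0.26 on Cre plus A, B and C and the auxiliary enzymes at -0.43, -0.46 and -0.33. The dehydrogenases lay at -0.24, -0.25 and -0.28, hydration to thiolysis at -0.35, -0.23 and -0.35, and electron transfer at -0.32, -0.16 and -0.28. Without Cre plus B, 16 of the 33 genes were lower at an unadjusted limma p under 0.05, where 10% of all genes were, and 15 of these were among the 18 of the full fit. Pdk4 was then higher at that p, and 0 of the 33 passed the adjusted threshold in either direction.

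**Figure D3:**
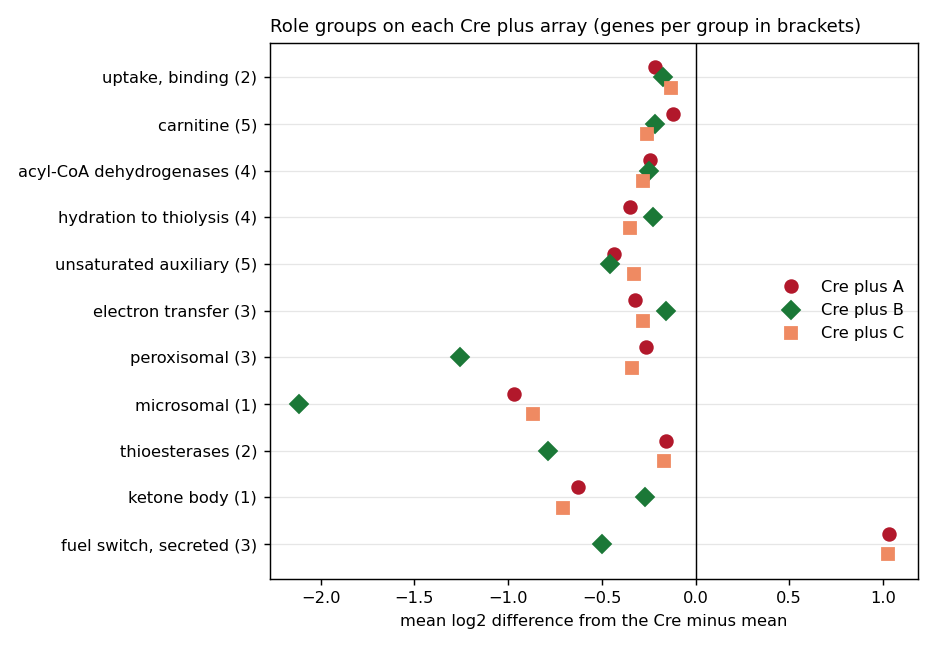
Mean log2 difference from the Cre minus mean for each role group (rows, number of genes in brackets) on Cre plus A, B and C (circles, diamonds and squares). The groups from the carnitine genes to electron transfer lie between -0.12 and -0.46 on all 3 arrays, and Cre plus B is far to the left for the group of Ehhadh, Acaa1b and Pex11a (-1.26) and for Cyp4a14 (-2.11), with the thioesterases (-0.79) there through Acot2 (-1.27).

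Bdh1, the mitochondrial enzyme that turns acetoacetate into the ketone body hydroxybutyrate and back, read 11.52, 11.13 and 11.13 on the Cre minus arrays and 10.63, 10.99 and 10.55 on the Cre plus arrays. The groups did not overlap, and here Cre plus B was the nearest to the controls. The Cre plus mean was 69.0% of Cre minus (-0.53 ± 0.16, adjusted p = 0.241 by limma), -0.67 ± 0.15 without Cre plus B, and the other kept probe set of Bdh1 gave -0.17. Acat1, the thiolase that makes the acetoacetyl-CoA from which ketone bodies start, read 12.64, 12.70 and 12.72 against 12.19, 12.51 and 12.18, at -0.39 ± 0.10 (adjusted p = 0.200 by limma) and without overlap. The monocarboxylate carrier Slc16a1, which lets ketone bodies and lactate out of the cell, was higher on all Cre plus arrays, at 12.54, 12.21 and 12.35 against 12.06, 11.98 and 12.16 (0.30 ± 0.10, adjusted p = 0.276 by limma).

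Pdk4 had higher values than the controls on 2 of 3 Cre plus arrays and a lower value on the other. This kinase switches off pyruvate dehydrogenase and so spares glucose when fat is burned, and it is a PPARa target. Pdk4 read 7.27, 7.52 and 8.58 on Cre minus A, B and C against 10.73, 6.96 and 10.72 on Cre plus A, B and C. Cre plus A and C were above every control and Cre plus B was below every control. The means were 7.79 ± 0.69 and 9.47 ± 2.18 (SD, n = 3 each), and the log2 fold change of 1.68 ± 1.09 (95% interval from -0.99 to 4.36, adjusted p = 0.517 by limma) became 2.94 ± 0.41 without Cre plus B (adjusted p = 0.0678 by limma, and 0.0678 to 0.769 over all alternatives). Socs3 itself was lowest on Cre plus B, by 0.77 log2 units under the mean of Cre plus A and C.

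For both secreted PPARa targets the groups overlapped. Angptl4, an inhibitor of lipoprotein lipase, read 10.63, 11.01 and 11.16 against 11.05, 10.65 and 11.36, at 0.09 (95% interval from -0.45 to 0.63). Cre plus C was the highest of the 6 arrays and Cre minus A the lowest. Fgf21, a fasting hormone of the liver, read 4.51, 3.71 and 4.04 against 4.12, 3.71 and 3.80, near the filter's floor of 4, which it passed on 3 arrays. At that level little signal stands over background, and its log2 fold change was -0.21 (95% interval from -0.76 to 0.33).

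**Figure D4:**
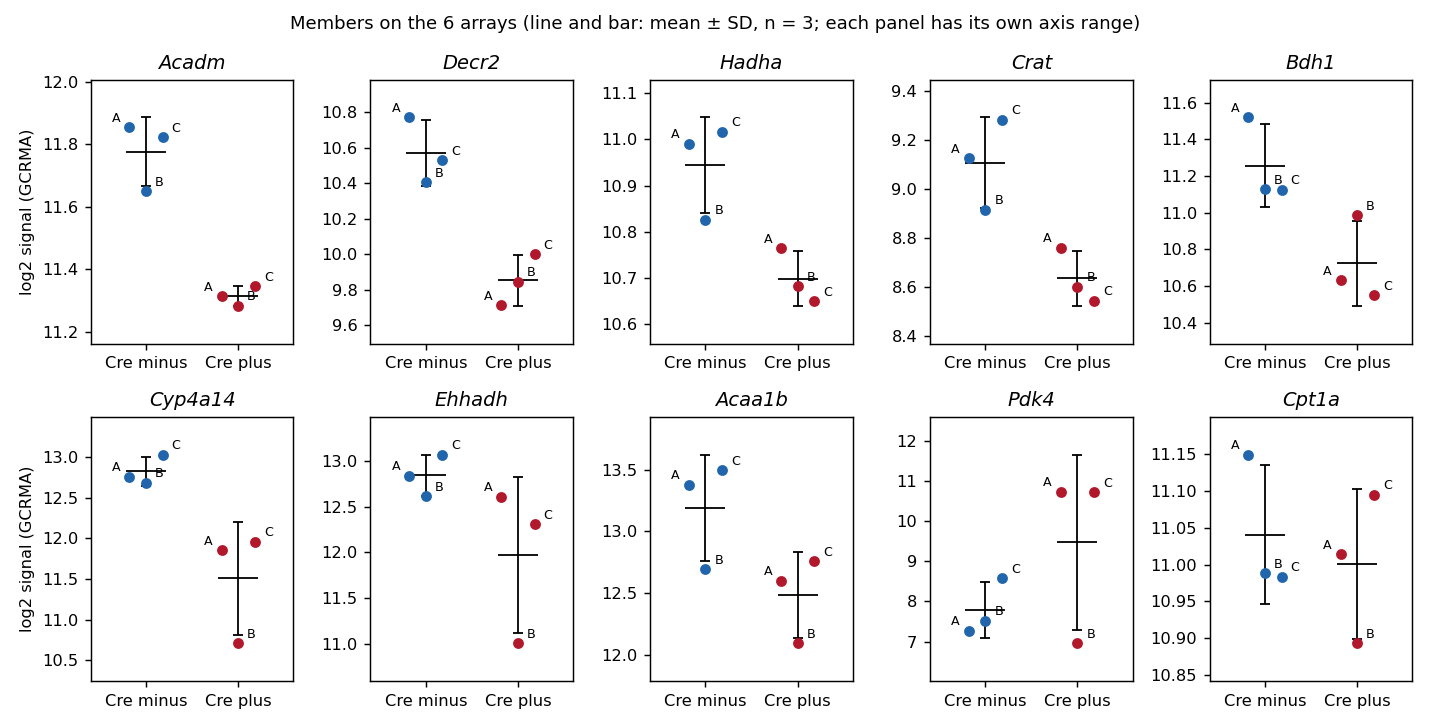
Log2 signal of 10 of the genes on the Cre minus (blue) and Cre plus (red) arrays A, B and C, with the mean and SD (n = 3). Acadm, Decr2, Hadha, Crat and Bdh1 separate on all arrays, Cyp4a14, Ehhadh and Acaa1b are lowest on Cre plus B, Pdk4 is at 10.73 and 10.72 on Cre plus A and C and at 6.96 on Cre plus B, and Cpt1a overlaps.

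Other genes of these routes, from lists that do not hold the 36, had mostly lower values too. Of 154 listed, 116 were kept, 88 of them lower and 28 higher in value, with a median of -0.20. At an unadjusted limma p under 0.05, 38 were lower (32.8%, against 8.21% of all genes) and 4 higher (6.62% of all genes were). Wholly below the controls lay 47 (40.5%, against 11.9% of all genes) and wholly above them 6 (9.21% of all genes did). The adjusted threshold was passed by 0 (0.0234% of all genes did). Regulators of the pathway had a median of -0.05 over 13 genes. At an unadjusted p under 0.05, 2 were lower (15.4%, against 8.21% of all genes) and 1 was higher (6.62% of all genes were). The receptor Ppara read 10.31, 10.07 and 10.14 against 9.996, 9.84 and 10.04, without overlap, at -0.21 ± 0.09 (adjusted p = 0.356 by limma). Its partner Rxra overlapped, at 9.44, 9.33 and 9.31 against 9.30, 9.41 and 9.24 (-0.05 ± 0.07). The mitochondrial deacylases Sirt3 and Sirt5 were at -0.45 ± 0.14 and -0.56 ± 0.19, and the coactivator subunit Med1 was at 0.29 ± 0.10.

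Among 17 other mitochondrial oxidation genes, 14 were lower in value, with a median of -0.20. At an unadjusted p under 0.05, 5 were lower (29.4%, against 8.21% of all genes). The 5 include 2 relatives of Pdk4 that are not oxidation enzymes, Pdk1 (-0.42 ± 0.13) and Pdk2 (-0.71 ± 0.25). Both lay wholly below the controls. Hsd17b10, a mitochondrial dehydrogenase of short branched acyl-CoA, was at -0.57 ± 0.12, the valine pathway hydrolase Hibch at -0.45 ± 0.10 and the acyl-CoA dehydrogenase Acad11 at -0.26 ± 0.08. Of 33 other peroxisomal genes, 28 were lower in value, also with a median of -0.20. At an unadjusted p under 0.05, 10 of them were lower (30.3%, against 8.21% of all genes). Cre plus B was the lowest of the 6 arrays for 7 of these 33 (21.2%, against 13.9% of all genes). The epoxide hydrolase Ephx2 was at -0.50 ± 0.08 (adjusted p = 0.0995 by limma), catalase (Cat) at -0.30 ± 0.06 and the peroxisome assembly factor Pex19 at -0.30 ± 0.09. These 3 peroxisomal genes did not overlap between the groups.

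Microsomal and acyl-CoA handling genes had the lowest median of these lists, -0.30 over 26 genes, 21 of them lower in value. At an unadjusted p under 0.05, 11 were lower (42.3%, against 8.21% of all genes). Cyp4a31, a relative of Cyp4a14, was at -0.70 ± 0.12, the fatty acid binding protein Fabp2 at -0.75 ± 0.13 and the medium-chain acyl-CoA synthetase Acsm3 at -0.50 ± 0.09. The thioesterase Acot1, chosen after its values were seen, showed the Cre plus B pattern of Cyp4a14, at 8.30, 7.78 and 8.98 against 7.57, 5.48 and 7.62 (-1.46 ± 0.65). That difference includes Cre plus B, which differed by -2.11 log2 units from the mean of Cre plus A and C. Of 24 other PPARa targets, 16 were lower and 8 higher in value, with a median of -0.17. At an unadjusted p under 0.05, 9 were lower (37.5%, against 8.21% of all genes) and 2 higher (6.62% of all genes were). Cre plus B was the lowest of the 6 arrays for 14 of these 24 (58.3%, against 13.9% of all genes). The pantetheinase Vnn3 was at -0.74 ± 0.10 (adjusted p = 0.0785 by limma), its relative Vnn1 at -0.90 ± 0.19 and the lipase inhibitor G0s2 at -1.14 ± 0.23, while the metallothionein Mt1 was higher, at 0.46 ± 0.10.

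**Figure D5:**
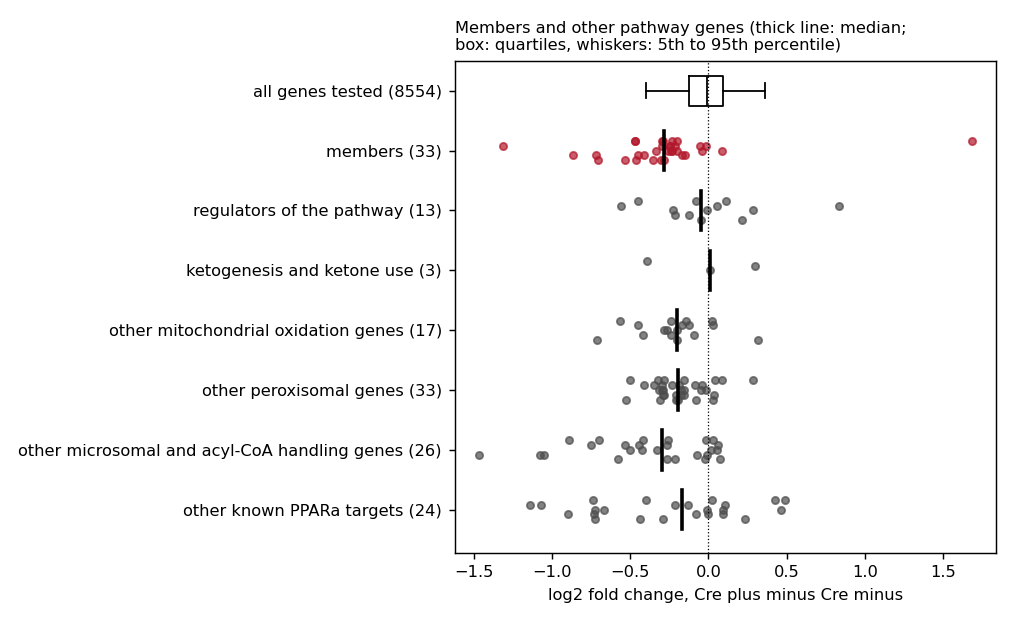
Log2 fold change of the 33 genes (red) and of other genes of the pathway by list (grey, number kept in brackets), each with its median (thick line), beside the quartiles and the range from the 5th to the 95th percentile of all 8554 genes tested. The 33 genes have a median of -0.28 and the regulators one of -0.05, against -0.01 over all genes.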

How the data were processed

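The deposited values are log2 expression per probe set, made by the authors with GCRMA, per the submitters' processing notes (a version was not given in the sources used here). The method models background from each probe's sequence, gives all arrays the same distribution and joins probes into probe sets. Fold changes of dim and of saturating probe sets can be compressed. Arrays have no sequencing depth, and precision is limited by the 3 arrays in each group.

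The members and lists were chosen with earlier results of these data known. Control probe sets (64 of 45101) were left out, and symbols came from the platform annotation (34958 probe sets with 1 symbol, 932 with several, 9211 with none). Probe sets with a log2 value over 4 on at least 3 of 6 arrays were kept (15563), and each gene was read from its brightest one (8554 genes). The groups were compared with limma 3.58.1 (R 4.3.3), lmFit and eBayes, two-sided, with Benjamini-Hochberg adjustment over all 8554 genes. On simulated data with independent genes, the fit was checked for the recovery of planted fold changes. The rate of false calls after adjustment was not checked. An exact permutation test of 3 against 3 arrays cannot go below p = 0.1 and was not used. Fold changes are given with limma's SE. A probe set with 1 gene symbol was read as that gene, and cross-hybridisation within the Cyp4a, Acaa1 and Acot families was not examined.

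Values on every array are given for each of the 33 genes with an unadjusted p under 0.05, for the 2 with the smallest p in each role group and for Cpt1a, Fgf21, Angptl4 and Pdk4, and of the other lists up to 3 genes with the smallest p are named, with Ppara, Rxra and Vnn1. Values of Eci2, Pex11a, Acot1, Pdk1 and Pdk2 were added after they were seen. Promoter windows came from RefSeq (GRCm38.p6), searched for exact letters or the mismatches stated. The alternatives were 2 other scalings of the arrays, 2 other filters, a prior with intensity trend, other choices of probe set, a replicate block, array weights and each array left out in turn.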

Additional observations from a re-analysis of the deposited data

How the results depend on the processing

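Under 15 alternatives the median log2 fold change of the 33 genes stayed between -0.35 and -0.24, where the ends came from leaving out 1 Cre minus array (B and A), and 0 of the 33 passed the adjusted threshold in any of them. The count of genes lower at an unadjusted p under 0.05 was 18, was 16 to 19 under the alternatives with all arrays, and was 10 to 20 with 1 array left out. Of all genes tested, 2 passed the adjusted threshold, against 13 with arrays shifted to a common median, 0 with no filter, 56 with a filter over 6, 0 without probe sets of the x, s and a kinds, and 0 to 13 with 1 array left out. The labels do not say whether letters A, B and C pair the samples. Same-letter deviations from the group means correlated at -0.15, -0.10 and 0.02. With 3 arrays a group, these values cannot settle whether the samples were paired. A replicate block gave 16 of the 33 genes and 0 of all genes. Of 491 values of single genes, 482 kept their sign, 1 (Fabp1 after quantile normalization) was 0 to within 1e-09, and 8 reversed, all with 1 array left out. With 1 array left out, Cpt1a ranged from -0.0861 to 0.0149, Crot from -0.0582 to 0.0426, Acot2 from -0.64 to 0.14, Fgf21 from -0.40 to 4.9e-04 and Angptl4 from -0.0833 to 0.27. The cause was not tested. Low signal over background limits Fgf21, and 3 arrays a group limit all results.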
